A study of Mus musculus with 24 samples.

Results

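The basolateral amino acid transporters of the absorptive cell are followed here by the transcripts of 6 genes, chosen by their symbols in the deposited count table. All 6 were found among its 17811 genes, and all 6 were among the 9328 genes with enough counts to test. The starting material was the jejunal epithelium of C57BL/6 males 10 weeks old, on regular chow and with no treatment, whose cells FACS sorted on CD73 and CD26 staining into zones of the villus. The zones are V1 (most bottom), V2 (bottom), V3 (bottom-middle), V4 (middle), V5 (middle-tip) and V6 (tip), and 4 mice gave 1 bulk library in each, which makes 24 libraries. The libraries hold whatever cell types entered a sort gate, and each zone of a mouse is 1 library.

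An enterocyte takes up amino acids and small peptides through its brush border and passes the amino acids to the blood through its basolateral membrane. Exit uses uniporters, which let amino acids run down their gradient, and exchangers, which swap intracellular for extracellular amino acids and so recycle what the uniporters release. The exchangers are heterodimers: a light chain that forms the pore (Slc7a8 or Slc7a7) is bound by a disulfide bridge to the heavy chain Slc3a2, also called CD98 or 4F2hc, which carries it to the membrane. Slc43a2 (LAT4) and Slc16a10 (TAT1) are uniporters. Slc38a2 (SNAT2) works in the other direction, as a sodium-coupled carrier that brings small neutral amino acids into cells, and its transcript is known to be induced by amino acid shortage.

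On GRCm38, with GENCODE M21, Slc7a8 (ENSMUSG00000022180) lies at chr14:54722209-54781946 and Slc7a7 (ENSMUSG00000000958) at chr14:54369442-54417780, both on the minus strand and separated by 304428 bases. Slc3a2 (ENSMUSG00000010095) lies at chr19:8706882-8723369 and Slc16a10 (ENSMUSG00000019838) at chr10:40033532-40142258, on the minus strand too. Slc43a2 (ENSMUSG00000038178) lies at chr11:75531694-75577575 on the plus strand, and Slc38a2 (ENSMUSG00000022462) at chr15:96687392-96699730 on the minus strand. RefSeq's table (GRCm38.p6) held 11 promoter windows for the 6 genes. The 250 bases before the start site are shown for the 3 genes with the firmest change and for Slc38a2, which went the other way. Capitals mark a match to 1 of 5 motifs searched on both strands, none of which overlapped another in these windows. The Slc7a7 window (chr14:54417945-54418194, minus strand) is the most upstream of 5 that the table gives for that gene, the Slc43a2 window (chr11:75531444-75531693, plus strand) the first of 2. The Slc16a10 window is at chr10:40142255-40142504 and the Slc38a2 window at chr15:96699729-96699978, both on the minus strand.
Slc7a7: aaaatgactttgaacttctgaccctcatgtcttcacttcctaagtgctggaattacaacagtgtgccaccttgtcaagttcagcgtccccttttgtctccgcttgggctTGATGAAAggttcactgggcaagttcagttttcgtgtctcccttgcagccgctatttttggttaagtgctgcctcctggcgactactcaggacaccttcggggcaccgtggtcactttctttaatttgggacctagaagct
Slc43a2: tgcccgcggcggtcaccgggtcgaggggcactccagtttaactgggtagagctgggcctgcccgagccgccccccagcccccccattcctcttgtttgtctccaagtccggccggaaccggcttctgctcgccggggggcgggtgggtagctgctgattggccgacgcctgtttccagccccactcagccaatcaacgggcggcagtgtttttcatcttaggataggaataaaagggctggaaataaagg
Slc16a10: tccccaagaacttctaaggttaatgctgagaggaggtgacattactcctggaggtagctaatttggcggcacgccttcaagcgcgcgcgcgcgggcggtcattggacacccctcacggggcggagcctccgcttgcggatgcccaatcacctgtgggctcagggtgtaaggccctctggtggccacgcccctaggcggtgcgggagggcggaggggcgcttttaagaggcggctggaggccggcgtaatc
Slc38a2: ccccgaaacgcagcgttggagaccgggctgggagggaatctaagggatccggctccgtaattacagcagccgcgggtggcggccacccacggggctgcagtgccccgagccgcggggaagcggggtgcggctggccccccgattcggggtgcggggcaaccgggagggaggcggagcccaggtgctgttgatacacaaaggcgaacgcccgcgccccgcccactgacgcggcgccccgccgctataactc
The capitals in the Slc7a7 window spell the C/EBP-ATF response element, searched as TGATGNAA and beginning 141 bases before the start site. That motif was in 3.45% of all 32851 promoter windows of this length. The HNF4 motif CAAAGTCCA (0.384% of all windows), the CDX motif TTTATNG (9.81%), the GATA motif AGATAA (9.99%) and the HNF1 consensus (0.00913%) had no match in the 4 windows shown. Other Slc7a7 windows, not shown, did have matches. Window 2 held a C/EBP-ATF response element 243 bases and a GATA motif 190 bases before its start site. Window 3, which overlaps it, held a GATA motif at 213 bases. The start site of the Slc7a7 window shown lies outside the GENCODE bounds of the gene given above. The GC content of the windows shown was 48.8% for Slc7a7, 62.8% for Slc43a2, 64.4% for Slc16a10 and 72.0% for Slc38a2. A match describes these letters only.

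The libraries held 806541 to 2266261 UMIs (unique molecular identifiers, so that each captured molecule counts once). Of the 10 enterocyte markers listed, 9 rose on the slope over the zones (tested as described below), where 22.1% of all genes tested did. The exception, Sis, had a slope of -0.0063 log2 per zone, and all 10 were present in every zone. Goblet cell transcripts, the sum of 9 markers, ran from 48422.5 to 96103 CPM in V1 and from 9569.6 to 15823 CPM in V6. Leukocyte transcripts, the sum of 12 markers, ran from 6.29 to 57.5 CPM in V1 and from 245 to 293 CPM in V6. Stromal, endothelial and red cell markers summed to at most 52.9 CPM in any library. Enteroendocrine transcripts (5 markers) were highest at the tip, with a sum of 4205 ± 1165 CPM (SD, n = 4), against 2106 ± 324 CPM in V1 and 611 ± 289 CPM in the middle zone. Stem and dividing cell transcripts (6 markers) summed to 150.5 ± 11.1 CPM in V1 and 75.7 ± 10.8 in V6. Paneth cell transcripts (6 markers) varied between libraries, from 1967 to 38109 CPM, and tuft cell transcripts (4 markers) summed to at most 25.3 CPM. Mitochondrially encoded transcripts took 2.59% to 4.57% of the UMIs in V1 and 7.13% to 9.72% in V6. These values move with the zones beside every result below, and their part in the results was not tested. In bulk libraries, fewer cells of a type and less RNA per cell cannot be told apart.

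Levels are CPM, UMI counts scaled to library size with TMM factors, and changes come from edgeR's quasi-likelihood test over all 9328 genes, called at a Benjamini-Hochberg adjusted p under 0.05. Along the villus, 5 of the 6 transcripts had their lowest mean in V1 and their highest in V3 or V4, and Slc38a2 had its highest mean in V1. Slc7a7, Slc43a2 and Slc16a10 rose from V1 to V4 by 1.18 to 1.49 on the log2 scale, and from V4 to V6 none of the 6 transcripts passed the test. On the slope over all zones, 3 of 6 rose and 0 fell, where 22.1% of all genes tested rose and 22.8% fell. With mouse as a block, which uses that the 6 zones of a mouse come from the same animal, 4 rose and 1 fell (background 27.6% and 27.8%). Their median slope was 0.13 log2 per zone, while that of all genes tested was -0.0047.

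**Figure D1:**
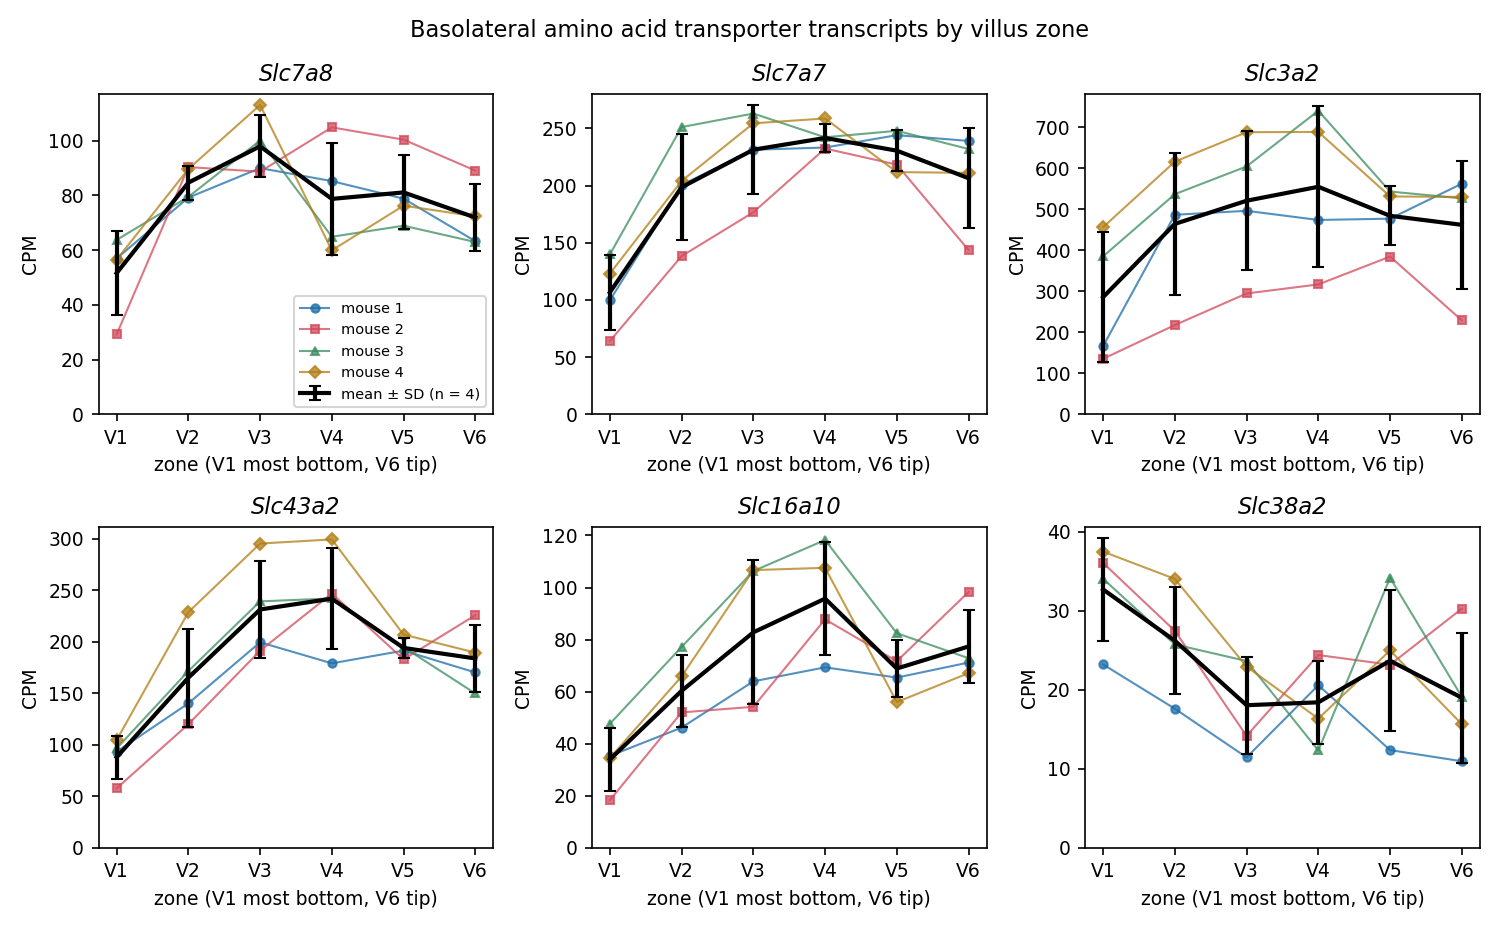
Level (CPM, linear axis from 0) of each of the 6 transcripts by zone, with 1 coloured line per mouse and black lines for the mean ± SD of 4 mice. Slc7a7, Slc43a2 and Slc16a10 climbed to V4 (means of 242, 242 and 95.7 CPM), while Slc38a2 was highest in V1 (mean of 32.7 CPM).

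Slc43a2, the uniporter for branched-chain amino acids, methionine and phenylalanine, had 93.3, 57.8, 96.5 and 105 CPM in V1 in mice 1 to 4. In V4 it had 179, 247, 242 and 299.5 CPM, and in V6 170.3, 226, 149.9 and 189.6 CPM. Every library of V4 and of V6 was above every library of V1, and V4 and V6 overlapped. It rose 2.74-fold from V1 to V4 (log2 1.45 ± 0.21 SE, adjusted p = 1.3e-05) and stood 2.09-fold higher in V6 than in V1 (log2 1.06 ± 0.21, adjusted p = 0.000347). The order of its zone means was V4, V3, V5, V6, V2 and V1, and V2 against V1 was the only neighbouring pair in that order whose libraries did not overlap. The first step, from V1 to V2, was a rise of 0.91 ± 0.21 (adjusted p = 0.0233). With mouse as a block, the second step, from V2 to V3, was also called (log2 0.50 ± 0.15, adjusted p = 0.0445, against 0.483 without the block). The antisense gene Gm45606 covers the first 1378 bases of Slc43a2, a limit if counting did not use strand.

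Slc16a10, the uniporter for aromatic amino acids, had 35.3, 18.3, 47.6 and 34.5 CPM in V1 and 69.3, 87.8, 118 and 108 CPM in V4. In V6 the same mice had 71.2, 98.3, 72.9 and 67.1 CPM. The libraries of V1 did not overlap with those of V4 or V6. The rise was 2.81-fold to V4 (log2 1.49 ± 0.26, adjusted p = 0.000122) and 2.27-fold to V6 (log2 1.19 ± 0.26, adjusted p = 0.000985). Between mice, V6 over V1 ran from 1.53-fold in mouse 3 to 5.37-fold in mouse 2, whose V1 library had 32 UMIs of this gene. Its zone means fell in the order V4, V3, V6, V5, V2 and V1, with every neighbouring pair overlapping.

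Both uniporters had near-equal slopes, 0.17 ± 0.035 log2 per zone for Slc43a2 (adjusted p = 0.000333) and 0.19 ± 0.043 for Slc16a10 (adjusted p = 0.000982). The slope of their log2 ratio was -0.021 ± 0.028 (SD, n = 4 mice), positive in 1 of 4 mice, and did not pass a two-sided permutation test of zones within mice (p = 0.329, adjusted p = 0.329 over 4 ratios). Of the 15 pairs among the 6 genes, this pair was also the closest over the 24 libraries, with a root mean square difference of 0.24 log2 after each gene was centred on its own mean.

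Slc7a7, the y+LAT1 light chain, exports lysine, arginine and other cationic amino acids in exchange for neutral ones. It had 99.6, 64.0, 139.8 and 123 CPM in V1, then 201, 138, 251 and 204 CPM in V2. In V4 it had 233, 232, 242 and 259 CPM, and in V6 239, 144, 232 and 211 CPM. All V4 and V6 libraries were above all of V1, and in V4 the 4 mice were closest together (242 ± 12.2 CPM, SD, n = 4). The transcript rose 2.27-fold from V1 to V4 (log2 1.18 ± 0.21, adjusted p = 0.000120) and by a log2 of 0.96 ± 0.20 from V1 to V6 (adjusted p = 0.000851), with a slope of 0.16 ± 0.034 (adjusted p = 0.000768). Its order was V4, V3, V5, V6, V2 and V1, with every neighbouring pair overlapping. The last 232 bases of the gene overlap the end of Oxa1l, a mitochondrial insertase gene on the opposite strand, and whether counting used strand is not given in the sources used here. Oxa1l fell along the zones by 0.12 log2 per zone (SE 0.037, adjusted p = 0.00995). Its mean over 4 mice was 48.7 ± 13.6 CPM (SD) in V1, and 30.7 ± 2.31 CPM at the tip. The part of the overlap in the Slc7a7 counts was not tested.

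Slc7a8, the LAT2 light chain, exchanges a broad range of neutral amino acids. It had 56.9, 29.2, 63.7 and 56.5 CPM in V1, 89.9, 88.6, 100.01 and 113 in V3, 85.2, 105, 64.9 and 59.9 in V4, and 63.3, 89.0, 62.9 and 72.3 in V6. V3 was above V1 in every mouse with no overlap, whereas V4 and V6 overlapped with V1. The highest mean was in V3 and the rest followed as V2, V5, V4, V6 and V1, with every neighbouring pair overlapping. The slope of 0.053 ± 0.034 did not pass the test (adjusted p = 0.205), and was -0.0056 without mouse 2 and 0.026 without its V1 library alone. The transcript rose from V1 to V4 (log2 0.62 ± 0.20, adjusted p = 0.0202), and that call ended without mouse 1 (adjusted p = 0.0884), without mouse 2 (log2 0.25, adjusted p = 0.250), without the V1 or the V4 library of mouse 2 alone (log2 0.42 and 0.46) and with scaling by total UMIs (log2 0.31, adjusted p = 0.250). V6 minus V1 was 0.48 ± 0.20 without passing the test (adjusted p = 0.0643), but passed with mouse as a block (0.46 ± 0.19, adjusted p = 0.0376), though not with the block and total UMI scaling together (0.12, adjusted p = 0.615).

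Slc3a2, the heavy chain shared by both light chains, varied widely between mice in V1 (286 ± 159 CPM, SD, n = 4). It had 167, 136, 385 and 457 CPM in V1, 474, 317, 741 and 689 in V4, and 563, 229, 527 and 530.4 in V6. Within each mouse V1 was the lowest zone, yet the V1 values of mice 3 and 4 were above the V4 and V6 values of mouse 2, so the groups overlapped. Its slope of 0.11 ± 0.065 did not pass the test over zones as groups (adjusted p = 0.186) and passed with mouse as a block (0.12 ± 0.030, adjusted p = 0.000937). The rise from V1 to V4 had a log2 of 0.96 ± 0.39 (adjusted p = 0.0568), and 1.02 ± 0.18 with the block (adjusted p = 3.4e-05). From V1 to V6 it was 0.69 ± 0.38 (adjusted p = 0.158), and 0.76 ± 0.18 with the block (adjusted p = 0.000807). In the fit without the block, leaving out mouse 1 gave 0.38 for V6 minus V1 and 0.067 for the slope, and leaving out the V1 library of mouse 2 gave 0.46 for V6 minus V1. The zone means went down in the order V4, V3, V5, V2, V6 and V1, and neighbouring pairs overlapped throughout.

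Slc38a2, the sodium-coupled carrier, was the least counted of the 6, with 12 to 63 UMIs per library. It had 23.2, 36.0, 34.0 and 37.5 CPM in V1, then 11.4, 14.2, 23.6 and 22.9 in V3, and 10.9, 30.2, 19.1 and 15.6 in V6. Each mouse had less in V3 and in V6 than in V1, and the zones overlapped. It fell from V1 to V6 by 0.80 on the log2 scale (SE 0.31, adjusted p = 0.0460), or by 0.82 with mouse as a block (SE 0.23, adjusted p = 0.00358). Without the block that call ended when mouse 1, 3 or 4 was left out (log2 -0.76, -0.79 and -0.64). It also ended in 9 of 24 fits that left out 1 library, where V6 minus V1 ran from -1.11 to -0.60. The slope was -0.13 ± 0.053 (adjusted p = 0.0576), and -0.13 ± 0.039 with the block (adjusted p = 0.00714). The zone means were in the order V1, V2, V5, V6, V4 and V3.

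The tip was compared with the most bottom zone, and the middle zone with both ends, to locate these changes. From V1 to V6, 3 of 6 transcripts rose and 1 fell (background 20.2% and 18.6%), or 5 and 1 with mouse as a block (background 26.7% and 24.7%). From V1 to V4, 4 rose and 0 fell (background 19.0% and 17.5%), or 5 and 1 with the block (background 25.6% and 24.8%). From V4 to V6, 0 of 6 were called in the edgeR test with or without the block, where 0.450% of all genes were called, or 1.42% with the block. At an unadjusted p under 0.05 none of the 6 passed from V4 to V6 without the block, the lowest being 0.0651 for Slc43a2. Without the block the V6 minus V4 values ran from -0.39 ± 0.20 for Slc43a2 to 0.0054 ± 0.34 for Slc38a2. With the block the value of Slc43a2 was -0.37 ± 0.15 (adjusted p = 0.390).

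**Figure D2:**
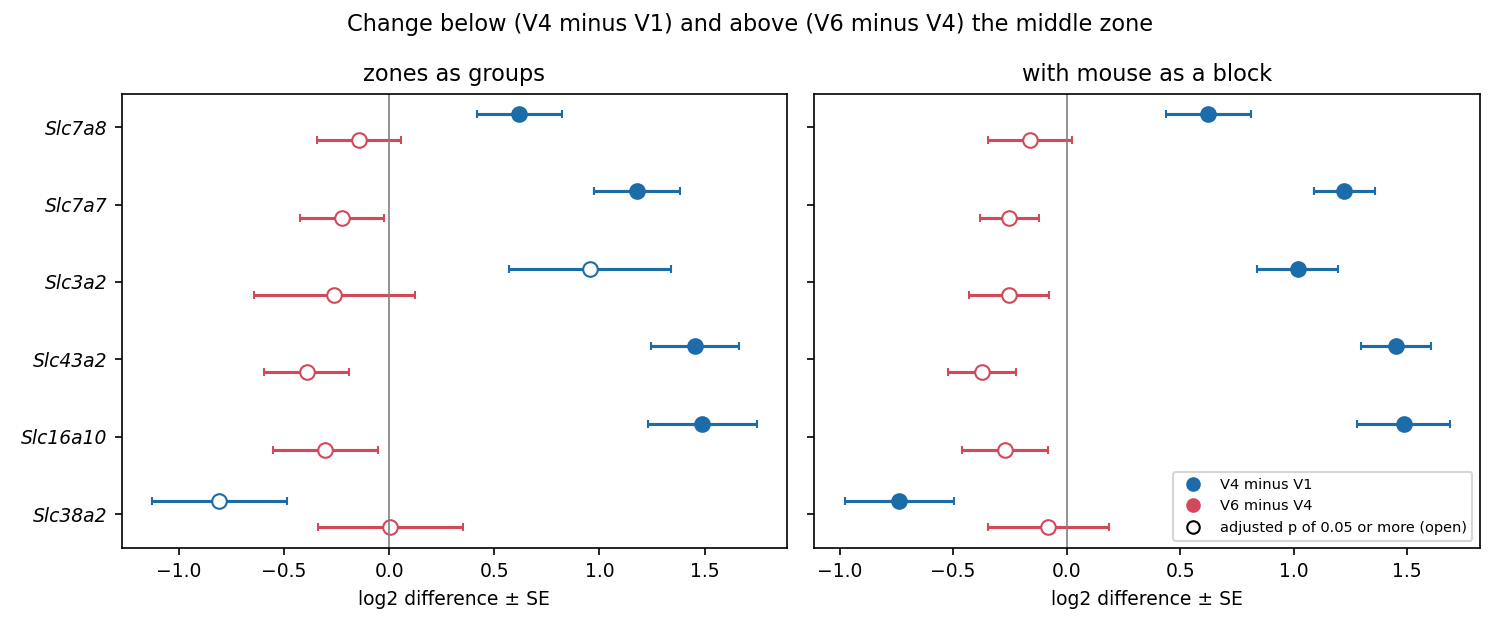
Log2 difference ± SE of V4 minus V1 (blue) and V6 minus V4 (red) for each transcript, from the fit over zones as groups (left) and with mouse as a block (right), filled where the adjusted p is under 0.05. The blue values of 5 transcripts lie above 0 and that of Slc38a2 below it, and all red points are open.

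For the 5 transcripts other than Slc38a2, the step from V1 to V2 was the largest of the 5 steps between neighbouring zones. From V1 to V2, 2 of 6 transcripts rose, Slc7a7 (log2 0.90 ± 0.20, adjusted p = 0.0233) and Slc43a2, where 1.43% of all genes did, and 5 of 6 rose with mouse as a block (background 9.20%). The other 3 had log2 values of 0.71 ± 0.20 for Slc7a8, 0.70 ± 0.38 for Slc3a2 and 0.82 ± 0.26 for Slc16a10 without the block. From V2 to V3, 0 rose without the block and 1 (Slc43a2) with it (background 0.172% and 3.00%).

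The quadratic term over the zones measures how far a transcript's course bends away from a straight line. A negative term is given both by a rise that levels off and by a rise followed by a fall, and does not tell these apart. It was negative and called for 4 of 6 transcripts, Slc43a2 (adjusted p = 0.000402), Slc7a7 (0.00292), Slc16a10 (0.00924) and Slc7a8 (0.0152), where 4.57% of all genes were. With mouse as a block it was called for 5, with Slc3a2 as the addition (adjusted p = 0.000724 against 0.227), where 12.3% of all genes were. Without mouse 4 the negative term of Slc7a7 (adjusted p = 0.0527), Slc7a8 (0.0895) and Slc16a10 (0.165) did not pass, and without mouse 1 that of Slc7a8 did not (0.107). Over V3 to V6 alone the slopes of the 5 genes were negative, from -0.13 for Slc7a8 and Slc43a2 to -0.057 for Slc7a7, and none passed the test. With mouse as a block none passed either, the closest being Slc43a2 (-0.13, adjusted p = 0.0531) and Slc7a8 (-0.14, adjusted p = 0.0661).

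Whether the light chains and their shared heavy chain changed by the same amount was asked from ratios within each library. Only the change of a ratio along the zones is read, not its size. The log2 ratio of Slc7a7 to Slc3a2 had a slope of 0.034 ± 0.060 per zone (SD, n = 4 mice, positive in 3 of 4), and that of Slc7a8 to Slc3a2 a slope of -0.071 ± 0.13 (positive in 1 of 4). Neither passed the two-sided permutation test of zones within mice (p = 0.170 and 0.134, adjusted p = 0.227 for both over 4 ratios). The ratio of Slc7a7 to Slc7a8 did, with a slope of 0.10 ± 0.084 (permutation p = 0.00410, adjusted p = 0.0164). That test permutes zones within mice, so its p does not measure the SD between mice. The slope was positive in 3 of 4 mice, with mouse 2 at -0.013. Without mouse 1 or without mouse 3 this difference no longer passed (adjusted p = 0.131 and 0.137), nor over V2 to V6 (0.138).

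**Figure D3:**
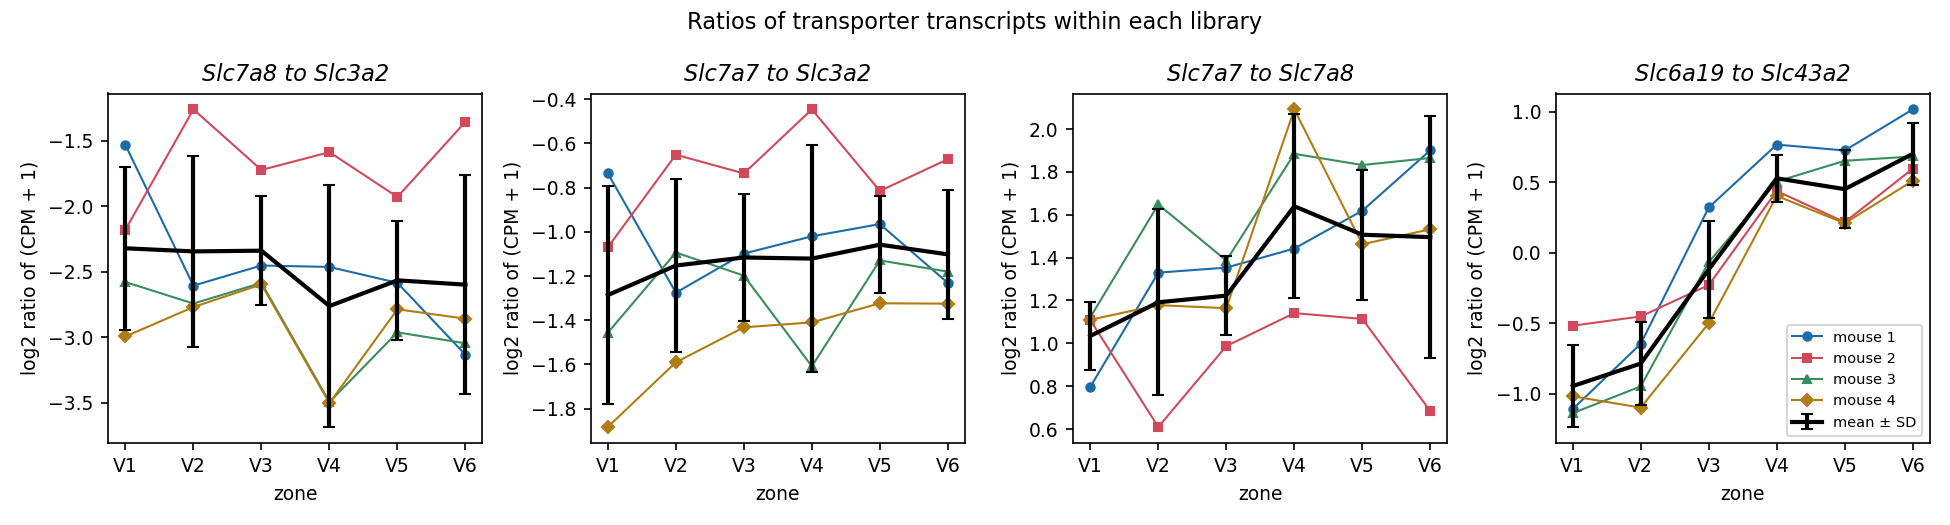
Log2 ratio of (CPM + 1) of 4 transcript pairs in each library by zone, with 1 coloured line per mouse and black lines for the mean ± SD of 4 mice. The ratio of Slc6a19 to Slc43a2 climbed in all 4 mice (slopes from 0.24 to 0.43 per zone), while both ratios to Slc3a2 stayed within the spread between mice.

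The luminal amino acid and peptide transporters are the other face of the same route. Of 14 such genes and partners listed, 12 were in the table and 11 were tested. On the slope 7 rose and 2 fell (background 22.1% and 22.8%), with a median of 0.25 log2 per zone. From V4 to V6, 0 of these 11 were called (background 0.450%). Their median difference there was -0.19 log2, against -0.24 for the 6 basolateral transcripts. Slc6a19 (B0AT1), which takes up neutral amino acids with sodium, had 44.3 CPM in V1, 345 CPM in V4 and 299.8 CPM in V6 (means of 4 mice). Its slope was 0.55 ± 0.028 (adjusted p = 2.5e-12). Slc15a1 (PEPT1), the carrier of dipeptides and tripeptides, rose by 0.40 ± 0.048 per zone (adjusted p = 6.2e-07), as did Slc7a15 by 0.54 ± 0.040 (adjusted p = 4.2e-10). The 2 genes that fell, named after their values were seen, were Slc1a5, a carrier of glutamine and other neutral amino acids (-0.31 ± 0.093, adjusted p = 0.0104), and the glutamate and aspartate carrier gene Slc1a1 (-0.13, adjusted p = 0.0278).

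The luminal and basolateral steps for the same substrates were compared by ratio, with pairs chosen after their values were seen. The log2 ratio of Slc6a19 to Slc43a2 had a slope of 0.36 ± 0.089 per zone (SD, n = 4 mice), positive in 4 of 4 mice, and went from 0.527 ± 0.115 in V1 to 1.64 ± 0.265 in V6 as a linear ratio. The ratio of Slc7a9 to Slc7a7, luminal and basolateral exchangers of cationic amino acids, which each rose by 0.16 log2 per zone, had a slope of 0.0083 ± 0.057, positive in 2 of 4 mice. Because of that choice both ratios are descriptions, with no test.

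**Figure D4:**
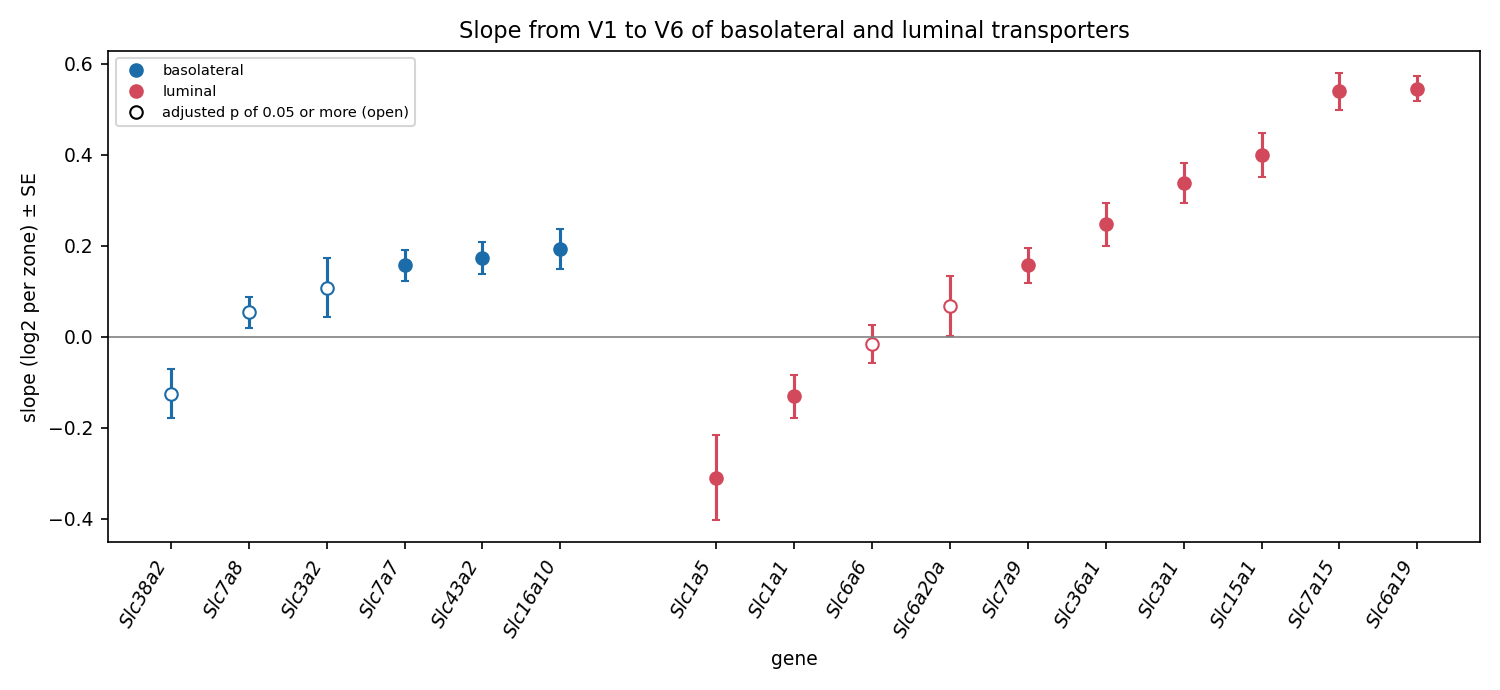
Slope (log2 per zone ± SE) of the basolateral transporters (blue) and of the tested luminal transporters of the SLC families (red), filled where the adjusted p is under 0.05. The basolateral slopes lie between -0.13 and 0.19, and the luminal ones between -0.31 and 0.55.

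Other light chains that can pair with Slc3a2 were scarce. Slc7a5 (LAT1) had 156 UMIs over all 24 libraries, Slc7a6 (y+LAT2) 72 and Slc7a11, the cystine-glutamate exchanger chain, 8, and none had enough counts to test. Of 16 further genes listed from the SLC7, SLC38 and SLC43 families, 12 were in the table and 5 were tested, of which Slc38a10 rose (0.10 ± 0.034, adjusted p = 0.0160) and Slc7a4 fell (-0.31 ± 0.067, adjusted p = 0.000709). Among all genes tested, 22.1% rose and 22.8% fell. With total UMI scaling 0 of the 5 rose and 2 fell, where 1217 of all 9328 genes rose and 3720 fell. With mouse as a block 1 rose and 2 fell (background 27.6% and 27.8%). Slc38a1 had -0.13 ± 0.064 (adjusted p = 0.106).

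The sodium pump at the same membrane keeps the gradient that sodium-coupled uptake uses. Of the 8 pump and potassium channel genes tested, 2 rose and 4 fell (background 22.1% and 22.8%), with a median slope of -0.17. That was 1 and 5 with total UMI scaling, where 1217 of all 9328 genes rose and 3720 fell. With mouse as a block it was 3 and 5 (background 27.6% and 27.8%). The potassium channel gene Kcnk5 rose (0.17 ± 0.040, adjusted p = 0.00157). Fxyd3, a regulator of the pump, fell (-0.23 ± 0.047, adjusted p = 0.000381), as did Kcne3, a potassium channel subunit (-0.33 ± 0.070, adjusted p = 0.000697), and the channel gene Kcnq1 (-0.34 ± 0.089, adjusted p = 0.00433).

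Slc3a2 and Slc38a2 are known targets of ATF4, the transcription factor of the amino acid response. Of 20 genes listed for this response 18 were tested, of which 5 rose, 3 fell and 10 did not pass, with a median slope of -0.055, beside 22.1% up and 22.8% down among all genes tested. With total UMI scaling 5 rose and 6 fell, where 1217 of all 9328 genes rose and 3720 fell. With mouse as a block 6 rose and 5 fell (background 27.6% and 27.8%). Vegfa, a growth factor gene, rose (0.35 ± 0.043, adjusted p = 8.0e-07), as did Cebpg, a partner of ATF4 (0.13 ± 0.021, adjusted p = 2.1e-05), Ddit3, the stress factor CHOP (0.25 ± 0.047, adjusted p = 0.000178), and Trib3 (0.27 ± 0.054, adjusted p = 0.000343). The 3 that fell were named after their values were seen. They were Nupr1 (-0.23 ± 0.058, adjusted p = 0.00263), Shmt2 (-0.24, adjusted p = 0.0183) and Atf5 (-0.24, adjusted p = 0.0304). Atf4 itself, the most abundant gene of the list, had 0.029 ± 0.031 (adjusted p = 0.454).

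For each transcript the 3 genes nearest to it were taken over the 24 libraries, by the root mean square difference in log2 after centring, leaving out genes whose mean was under 50 CPM. Nearest to Slc7a7 were Crat, carnitine acetyltransferase (0.14 log2), Khk, ketohexokinase (0.15), and Aoc1, diamine oxidase (0.16). Slc43a2 lay nearest to the maltase-glucoamylase gene Mgam (0.18), the sodium-glucose cotransporter gene Slc5a1 (0.18) and Naprt (0.19). Slc16a10 lay nearest to Tmem236 (0.20), Mttp, the triglyceride transfer protein of chylomicron assembly (0.22), and Btnl2 (0.23). Next to Slc7a8 were Enpep, glutamyl aminopeptidase (0.20), Epb41l3 (0.23) and Ckmt1 (0.24). Next to Slc3a2 were Fcgrt, the neonatal Fc receptor (0.23), Rhog (0.24) and the cathepsin gene Ctss (0.24). Slc38a2 had no gene within 0.30 log2, the nearest being Stt3b, a subunit of the oligosaccharyltransferase (0.33), Aldh18a1, an enzyme of proline synthesis (0.35), and Sgpp2 (0.36). All libraries share mice and pools, so these distances are descriptions.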

How the data were processed

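Bulk mcSCRB-seq, per the labels' protocols, gave 24 libraries, whose gene-level UMI counts the authors deposited unnormalised. The submitters' processing notes name bcl2fastq 2.15.0.4 and GRCm38. For the aligner, annotation and strand setting the sources used here give nothing. The deposited index column, read here as a pool label, gave mouse 1 and the V1 library of mouse 2 the same index (7 libraries). The 5 remaining libraries of mouse 2 had a second index, and the 6 libraries each of mouse 3 and of mouse 4 had their own. Between mice, pool and mouse therefore cannot be told apart. Within mouse 2, every comparison with V1 also crosses pools, so there pool and the change from V1 cannot be told apart. Mouse as a block does not take up that difference, and its part was not tested.

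The fits used edgeR 4.0.16 under R 4.3.3. Low genes were removed with filterByExpr, grouped by zone, at a count of 10 and a total of 15. Libraries were scaled by TMM, and a robust quasi-likelihood fit of 1 mean for each zone (18 residual degrees of freedom) gave the equally spaced slope, the quadratic curvature and differences between zones. Standard errors are the estimate over the root of F. The test was checked on simulated counts drawn without a mouse effect. That check does not cover the pairing of zones within mice. Ratios were log2 of (CPM + 1), with zones permuted within mice 100000 times in numpy 2.4.6. Named genes are the 6 members, up to 4 genes of each list with the smallest adjusted p on the slope and its most abundant one, and the 3 nearest genes to each member. Exceptions are said beside the value, and some genes that the rule takes are not reported here. Oxa1l and Gm45606 were named for their overlap. Figures used matplotlib 3.10.9.

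The members and lists were chosen with earlier results of these data known. Mouse numbers pair the libraries, since the labels give the 6 zones of a number to the same animal. Deviations from zone means correlated above 0.1 in 60 of 60 pairs of the same mouse (mean r 0.418) and in 33 of 180 pairs of different mice. Pool and mouse nearly coincide, so these correlations cannot tell mouse from pool. Within a zone, no libraries were copies (chi-square per degree of freedom of at least 3.52 in 36 pairs). Pairs from different zones were not checked in this way. CPM values carry counting error that is largest for Slc38a2. Alternatives were mouse as a block, DESeq2 1.42.0 and its size factors, total UMI scaling, no filter, removal of mitochondrially encoded or of goblet marker genes, fewer zones, and leaving out each mouse or library. Single libraries, total UMIs with the block and fewer zones with the block were added after seeing the data.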

Additional observations from a re-analysis of the deposited data

Results flagged for a closer look

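Of 36 groups of 4 libraries (6 transcripts in 6 zones), 1 held a library far from the others: Slc3a2 in V6, where mouse 2 had 229 CPM against 527 to 563 CPM in the other mice, a gap of 0.893 of the whole range. Chance puts about 1 in 20 such groups past Dixon's limit.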

How the results depend on the processing

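With mouse as a replicate block, calls were gained for the slopes of Slc3a2 (0.12) and Slc38a2 (-0.13), for V6 minus V1 of Slc7a8 (0.46) and Slc3a2 (0.76), for V4 minus V1 of Slc3a2 (1.02) and Slc38a2 (-0.74) and for the curvature of Slc3a2 (-0.61). None was lost or turned, and beyond these the block added only the steps named in the report. Scaling by total UMIs moved the all-gene median of V6 minus V1 to -0.34, against -0.00071 with TMM, and genes called on the slope moved to 1217 up and 3720 down (4234 down with the block). There the slope of Slc38a2 (-0.19, also with the block) and its V4 minus V1 (-1.12, or -1.06 with the block) were called, V4 minus V1 of Slc7a8 was not (0.31, or 0.30 with the block), and the uncalled slope of Slc7a8 was -0.012. With that scaling and the block, Slc3a2 was called for the slope (0.058), V6 minus V1 (0.43) and V4 minus V1 (0.70). Without a filter V6 minus V1 of Slc38a2 was not called (-0.79). Over V2 to V6 the called slopes ended, at 0.013 for Slc7a7, 0.0080 for Slc43a2 and 0.049 for Slc16a10 (0.014, 0.014 and 0.054 with the block), and over V3 to V6 they turned negative, at -0.057, -0.13 and -0.074 (-0.058, -0.13 and -0.065 with the block). The ratio of Slc7a7 to Slc7a8 lost its call over V2 to V6 (0.089).

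Leaving out 1 mouse or 1 library gave slopes of -0.17 to -0.086 for Slc38a2, -0.0056 to 0.086 for Slc7a8 and 0.067 to 0.15 for Slc3a2. V6 minus V1 ran from 0.13 to 0.66 for Slc7a8, from 0.38 to 1.02 for Slc3a2 and from -1.11 to -0.60 for Slc38a2. V4 minus V1 ran from 0.25 to 0.83 for Slc7a8, from 0.72 to 1.28 for Slc3a2 and from -1.02 to -0.63 for Slc38a2. Curvature ran from -0.64 to -0.45 for Slc7a8, from -0.78 to -0.60 for Slc7a7 and from -0.87 to -0.65 for Slc16a10. The slope of the Slc7a7 to Slc7a8 ratio ran from 0.078 to 0.14. Genes called downward on the slope ran from 1293 to 2230. The cause of these changes was not tested. DESeq2, its size factors and removal of mitochondrially encoded or goblet marker genes changed no call of the slope or of V6 minus V1 for the 6 genes. By Pearson correlation instead of distance, 0 of the 3 nearest genes of Slc3a2 and 1 of those of Slc16a10 were shared. Depth limits Slc38a2 most, at 12 to 63 UMIs per library.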
